A study of Mus musculus with 6 samples.

Results

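*Comp* encodes cartilage oligomeric matrix protein, also called thrombospondin 5. It is examined here with the other thrombospondins and with matrilins that bind the same matrix. The members were the rows whose gene symbol was *Comp*, *Thbs1*, *Thbs2*, *Thbs3*, *Thbs4*, *Matn2*, *Matn3* or *Matn4* in the deposited count table. Of these 8 names, 6 had a row, among 19509 symbols in all, and these 6 genes took 9 of 37024 rows. *Thbs1* and *Matn4* were not analysed here. *Comp* was selected on the counts compared here, chosen by how clearly they separated the *Lexis*-AdKO from the *Lexis*-AdWT libraries, so its difference between these groups is given as a description with no test. The other members were chosen as its relatives.

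RNA came from inguinal white adipose tissue (iWAT), a subcutaneous fat depot, of mice on a C57BL/6 background that had been given a Western diet for 12 weeks. *Lexis* is a long noncoding RNA gene. The *Lexis*-AdWT mice (AdWT, 3 libraries) carried the floxed *Lexis* fl/fl allele without Cre, and the *Lexis*-AdKO mice (AdKO, 3 libraries) carried it together with *Adipoq*-cre, which acts in adipocytes and leaves the other cells of the depot with an intact allele. AdWT mice were littermates of the AdKO mice. The age and sex of the mice behind these libraries, and whether a library held more than 1 mouse, are not given in the sources used here. The libraries held between 14470542 and 17882713 counts.

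Thrombospondins are calcium-binding glycoproteins that are secreted into the matrix. Thrombospondins 1 and 2 form trimers and carry type 1 repeats, through which they bind the receptor CD36 and restrain the growth of blood vessels. Thrombospondins 3, 4 and COMP form pentamers and lack those repeats. COMP binds fibrillar collagens and fibronectin and helps collagen to assemble into fibrils, and it is best known from cartilage and tendon, although activated fibroblasts also make it. Matrilins are adaptor proteins with von Willebrand factor A domains that link collagen fibrils, proteoglycans and COMP.

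The row of *4930412L05Rik*, the locus of *Lexis*, had 8, 9 and 8 counts in the AdWT libraries and 21, 11 and 13 in the AdKO libraries, so each AdKO library held more than each AdWT library. Deletion of *Lexis* in adipocytes is meant to lower this transcript, and the row did not show that. At so few counts the row is a weak check of the labels, on which every direction given here rests. Adipocyte genes were abundant in all libraries, with summed levels of *Adipoq*, *Plin1*, *Lipe*, *Pnpla2*, *Fabp4* and *Lep* between 41388 and 54665 CPM (counts scaled to library size by the TMM method). *Pnpla2*, a lipase of adipocytes, was nevertheless listed at 0 in every library, and *Col1a2*, a chain of type I collagen, at 0.39 CPM beside 5174 CPM for the type III collagen gene *Col3a1* in the AdWT group. A low value in this table therefore need not mean a low transcript level. Across the 9872 rows that passed edgeR's filter on low counts, 0 (0%) had an adjusted *p* under 0.05 between the groups (edgeR, quasi-likelihood, Benjamini-Hochberg), and DESeq2 called 27. An unadjusted *p* under 0.05 was found for 566 rows (5.73%), of which 272 (2.76% of all rows tested) were higher and 294 (2.98%) lower in AdKO, and with library size scaling in place of TMM 313 were higher and 162 lower. Groups did not overlap in 11.9% of the rows, 6.16% higher and 5.72% lower in AdKO, and 51.7% had a fold change above 0.

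*Comp* (ENSMUSG00000031849.7) lies on the plus strand of chromosome 8 from 72897447 to 72905964 in mm9 and has a single row. It had 265, 190 and 230 counts in AdWT replicates 1, 2 and 3, and 576, 770 and 823 counts in AdKO replicates 1, 2 and 3. After scaling, these were 17.3, 11.4 and 15.4 CPM against 39.6, 50.7 and 49.5 CPM. The lowest AdKO library thus lay well above the highest AdWT library, by 1.19 on the log2 scale. The group means were 14.7 ± 3.05 CPM (SD, n = 3) in AdWT and 46.6 ± 6.09 CPM (SD, n = 3) in AdKO, and the fitted log2 fold change of AdKO over AdWT (log2FC, with its standard error SE) was 1.67 (SE 0.175), or 3.17-fold. Leaving out single libraries moved it at most to 1.504 (AdWT replicate 2 removed) and 1.80 (AdWT replicate 1 removed).

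Among the 8616 rows with at least 10 counts in every library, the gap between the groups was largest for *Comp*, and the next was *Nfe2l3*, a transcription factor gene, with 1.10 on the log2 scale. Over all 9872 rows tested, *Comp* ranked 6 by this gap. By size of fold change in either direction *Comp* ranked 8 among the 8616 rows. By fold change upward in AdKO it ranked 3, after *Ptn*, a growth factor gene (log2FC 2.12, SE 0.887), and *Lcn2*, the lipocalin 2 gene (1.87, SE 0.539). In both of these the groups overlapped. AdKO replicate 3 held 359 counts of *Ptn* against 19 to 49 in the other libraries, whereas the counts of *Comp* in the AdKO libraries differed by less than their distance from AdWT. These values chose *Comp* and are not a finding about it.

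**Figure D1:**
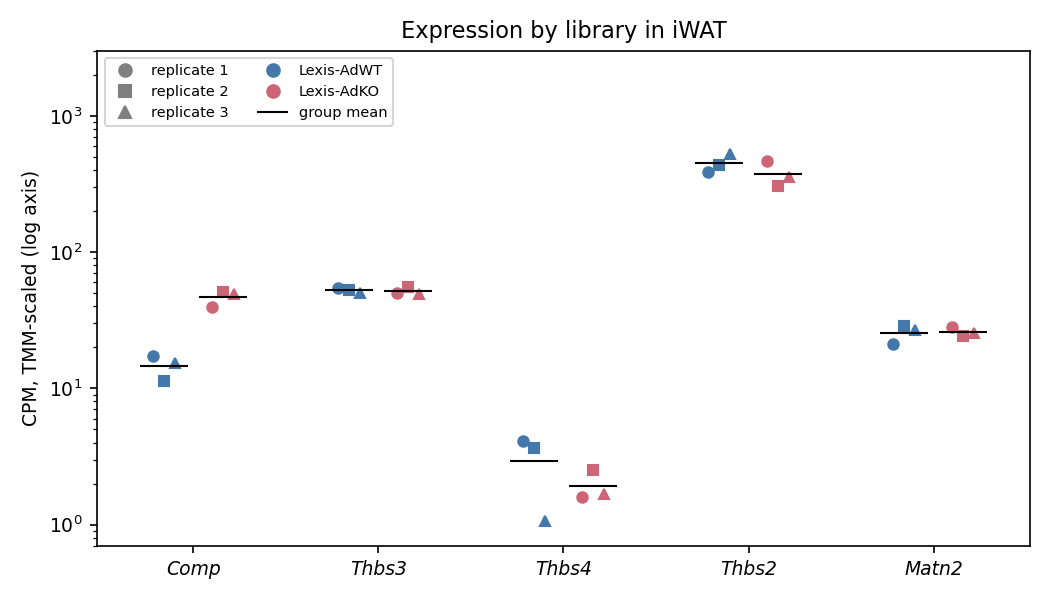
TMM-scaled CPM (log axis) of the measured members in each library, blue for *Lexis*-AdWT and red for *Lexis*-AdKO, with symbols for replicate numbers and lines for group means. The *Comp* points lie between 11.4 and 17.3 CPM in AdWT and between 39.6 and 50.7 CPM in AdKO, while the groups of *Thbs3*, *Thbs4*, *Thbs2* and *Matn2* overlap.

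Of the other members, *Thbs2*, *Thbs3*, *Thbs4* and *Matn2* passed the filter on low counts. With all 6 libraries none of these 4 genes had an adjusted or an unadjusted *p* under 0.05, and in none did the groups separate, beside 11.9% of all rows tested. *Thbs3* (ENSMUSG00000028047.5, plus strand of chromosome 3, 89019102 to 89030759), which encodes another pentameric thrombospondin, had 831, 879 and 751 counts in the AdWT libraries and 726, 844 and 816 in the AdKO libraries. Its level was 52.4 ± 2.07 CPM (SD, n = 3) in AdWT and 51.5 ± 3.56 CPM (SD, n = 3) in AdKO. It was the steadiest member, with a within-group SD of 0.0802 on the log2 scale against a median of 0.226 over all rows tested. The log2FC was -0.02 (SE 0.0814, 95% interval -0.21 to 0.17, adjusted *p* = 0.966 in edgeR's test), and its sign changed with library size scaling (0.020), without AdWT replicate 1 (0.0037) and without AdKO replicate 3 (0.011). The gene *Mtx1* covers *Thbs3* on the opposite strand in the annotation and is listed at 0, and whether the counting used the strand of the reads is not given in the sources used here, so the count of *Thbs3* is uncertain.

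*Thbs4* (ENSMUSG00000021702.7, minus strand of chromosome 13, 93521545 to 93564773) encodes the pentameric thrombospondin known from tendon, muscle and heart. It was the scarcest of the members tested, with 63, 61 and 16 counts in AdWT and 23, 38 and 28 in AdKO. AdWT replicate 3 was the lowest of the 6 libraries and AdWT replicates 1 and 2 the highest, so that the AdKO values fell inside the range of AdWT. The log2FC was -0.62 (SE 0.470, 95% interval -1.72 to 0.48, adjusted *p* = 0.855 in edgeR's test). It was -0.31 without AdWT replicate 1. Without AdWT replicate 3 it was -1.02, with an unadjusted *p* of 0.00698 and an adjusted *p* of 0.884 in edgeR's test. Summed levels of skeletal muscle markers were 35.5, 180.6 and 20.3 CPM in the AdWT libraries and 6.46 to 7.42 CPM in AdKO. Within AdWT, replicate 3 was the lowest library for the muscle markers and for *Thbs4*. The highest was replicate 2 for the muscle markers and replicate 1 for *Thbs4*. Each AdKO library held less of the muscle markers than AdWT replicate 3 but more *Thbs4*. The part of muscle in the values of *Thbs4* was not tested.

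*Thbs2* (ENSMUSG00000023885.7, minus strand of chromosome 17, 14802507 to 14831269) encodes the trimeric thrombospondin that fibroblasts make and that limits vessel growth. It was the most abundant member, with 5870, 7251 and 7875 counts in AdWT and 6801, 4630 and 5921 in AdKO. AdKO replicate 1 lay above AdWT replicate 1 and AdWT replicate 2 after scaling, with 467.5 CPM against 384.1 and 433.5 CPM, and AdWT replicate 3 was the highest library with 526.9 CPM. The log2FC was -0.25 (SE 0.176, 95% interval -0.66 to 0.16, adjusted *p* = 0.853 in edgeR's test). Without AdKO replicate 1 it was -0.44, with an unadjusted *p* of 0.0279 and an adjusted *p* of 0.918 in edgeR's test, and it was -0.13 without AdWT replicate 3 or AdKO replicate 2. The intervals of *Thbs2*, *Thbs3* and *Thbs4* each end below 0.5.

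The matrilins were represented by *Matn2* and *Matn3*. *Matn2* (ENSMUSG00000022324.7, plus strand of chromosome 15, 34236436 to 34366029) encodes the widely expressed member of this family and has 4 rows. The row with the highest total had 323, 482 and 398 counts in AdWT and 411, 367 and 426 in AdKO. AdWT libraries were both the lowest and the highest, and the log2FC was 0.03 (SE 0.136, 95% interval -0.29 to 0.34, adjusted *p* = 0.981 in edgeR's test). The sign changed without AdWT replicate 1 (-0.092) and without AdKO replicate 1 (-0.037). The second row had between 37 and 74 counts, with a log2FC of -0.15 (SE 0.265), and the third between 4 and 19 counts, with 0.08 (SE 0.529). The last row had 2 to 6 counts and was not tested. *Matn3*, a matrilin of growth plate cartilage, lies on chromosome 12 and had a count of 0 in all 6 libraries, where a count of 0 allows up to 3 counts, or 0.179 to 0.206 CPM, for counting error only.

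Levels of different genes were compared per kilobase of annotated exon. In AdWT, *Thbs2* stood first with 75.6 CPM per kb, followed by *Thbs3* with 10.9, the main row of *Matn2* with 7.07, *Comp* with 6.06 and *Thbs4* with 0.896. The libraries ranged from 10.4 to 11.3 CPM per kb for *Thbs3*, above the 5.86 to 7.98 of *Matn2*. The range of *Comp*, 4.68 to 7.15 CPM per kb, overlapped that of *Matn2*, so that these neighbours did not differ beyond their spread. In AdKO the order was *Thbs2* with 63.5 CPM per kb, *Comp* with 19.2, *Thbs3* with 10.7, *Matn2* with 7.21 and *Thbs4* with 0.584. There *Comp*, from 16.3 to 20.9 CPM per kb, lay above the 10.2 to 11.5 of *Thbs3* in each library. *Thbs3* is the gene whose length is least certain. With the longest coding transcript (3190 bp) in place of all exons (4823 bp) it measured 15.6, 17.4 and 15.4 CPM per kb in AdKO replicates 1, 2 and 3, still below *Comp* in the same library, while the ranges then overlapped.

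Of the pentameric thrombospondin transcripts, *Comp* made up 36.3%, 28.1% and 37.1% in the AdWT libraries and 60.1%, 63.0% and 65.6% in the AdKO libraries. *Thbs3* was the main pentameric transcript in AdWT, with 57.3% to 65.3%, and took 32.7% to 38.1% in AdKO, although its own level differed little. The sum of the 3 genes was 17.8 ± 1.62 CPM per kb in AdWT and 30.5 ± 3.07 CPM per kb in AdKO (SD, n = 3). When *Thbs2* was added, the total was 93.4 ± 11.2 CPM per kb in AdWT and 93.9 ± 11.0 CPM per kb in AdKO (SD, n = 3). These totals did not differ beyond their spread and leave out *Thbs1*. The lower *Thbs2* in AdKO had an adjusted *p* of 0.853 in edgeR's test. *Thbs2* held 80.7% ± 3.64 of that total in AdWT and 67.0% ± 6.87 in AdKO (SD, n = 3), and *Comp* 6.56% ± 1.70 and 20.8% ± 4.84 (SD, n = 3). These shares contain the difference in *Comp* and are a description of it.

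**Figure D2:**
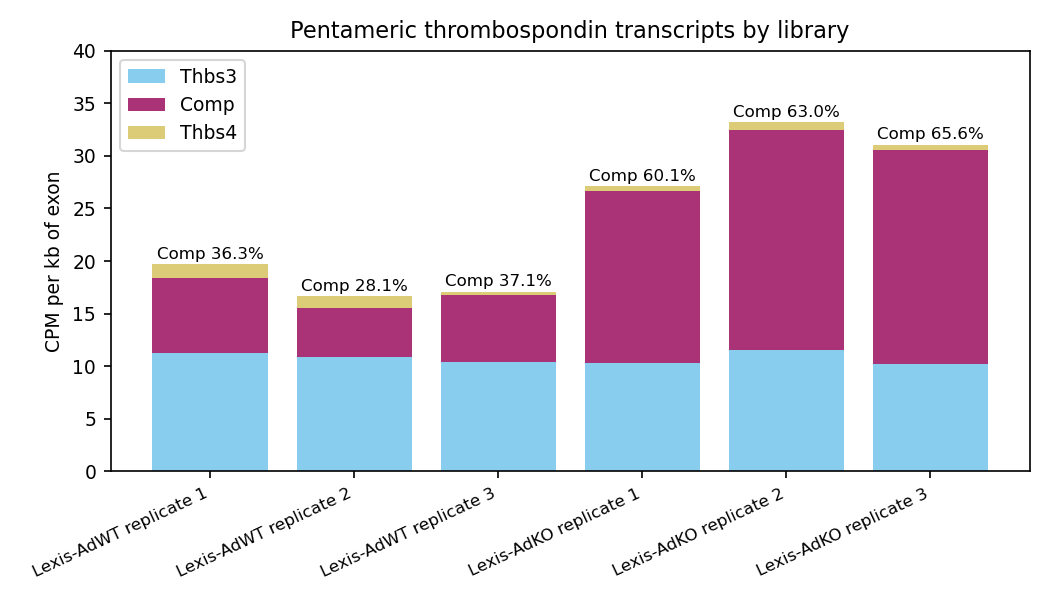
Stacked bars of the CPM per kb of exon of *Thbs3*, *Comp* and *Thbs4* in each library, with the share of *Comp* above each bar. The *Thbs3* part stays between 10.2 and 11.5 CPM per kb in the 6 libraries, and the *Comp* part lies between 4.68 and 7.15 in AdWT and between 16.3 and 20.9 in AdKO.

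The likeness of profiles to that of *Comp* was measured over the 6 libraries as the root mean square difference of log2 CPM after each gene was centred on its own mean. Over 7820 genes with at least 10 counts in every library its median was 0.878, and *Thbs3* had 0.875, *Matn2* 0.893, *Thbs2* 1.04 and *Thbs4* 1.25. The measure uses the values that chose *Comp*, and a gene with like levels in all libraries scores near that median, so these are a description. The closest genes were *Nfe2l3* (0.299), *Pcdhb7* (0.378), *Ehmt2* (0.447), *Ifnlr1* (0.458) and *Slc6a7* (0.463). They encode a transcription factor, a protocadherin, a histone methyltransferase, an interferon lambda receptor and a proline transporter. Their counts were low, from 10 to 43 per library in *Nfe2l3*, 21 to 96 in *Pcdhb7*, 10 to 22 in *Ehmt2*, 10 to 40 in *Ifnlr1* and 92 to 247 in *Slc6a7*. In all 5 the groups were separate, and *Comp* itself was chosen for that separation.

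**Figure D3:**
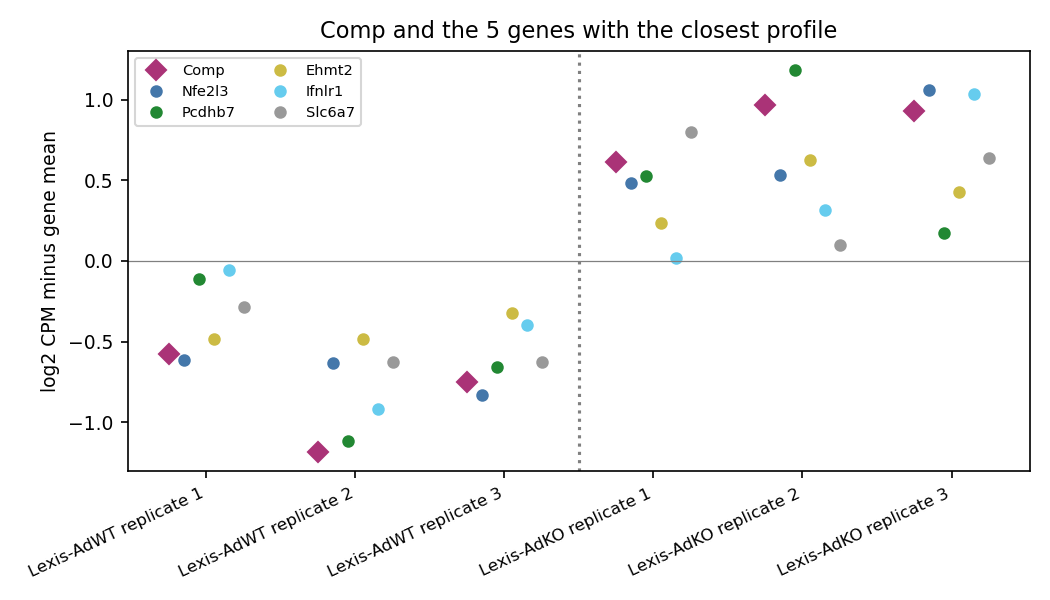
Log2 CPM of *Comp* (diamonds) and of the 5 genes closest to it (circles), each minus its mean over the 6 libraries, by library. All 6 genes lie below their mean in the AdWT libraries and above it in the AdKO libraries, and the points of *Comp* are the lowest of the 6 genes in AdWT replicate 2.

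The genes that meet these proteins were taken from lists of receptors, matrix partners, cleaving proteases and TGF-β genes. Of 57 genes, 44 had a row and 28 passed the filter on low counts. None had an adjusted *p* under 0.05 in edgeR's test (DESeq2 called 1, *Cd36*). An unadjusted *p* under 0.05 was reached by 3 genes (10.7%, against 5.73% of all rows), 1 higher and 2 lower in AdKO, and the groups did not overlap in 4 (14.3%, against 11.9% of all rows). The plot of fold changes shows partner genes beside the members.

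Of 15 receptors and surface partners of thrombospondins, 10 were tested, 5 above and 5 below a log2FC of 0, with a median of 0.01 beside 0.01 for all rows tested. *Cd36*, which encodes the fatty acid transporter that also binds thrombospondins 1 and 2, had 314, 360 and 213 counts in AdWT and 149, 163 and 131 in AdKO. All AdKO libraries were below all AdWT libraries, with a log2FC of -0.97 (SE 0.200, adjusted *p* = 0.817 in edgeR's test). *Cd36* has 5 rows, of which this is the highest, so its level is uncertain. *Lrp1*, the scavenger receptor that clears thrombospondins from the cell surface, had 3050 CPM in AdWT and 3541 CPM in AdKO, with separate groups and a log2FC of 0.22 (SE 0.0929, adjusted *p* = 0.851 in edgeR's test). *Calr*, the calreticulin gene, had a log2FC of 0.05 (SE 0.108), and *Sdc4*, a heparan sulfate proteoglycan gene, -0.03 (SE 0.193). *Itgb1*, the integrin β1 gene, had -0.08 (SE 0.0763).

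Among 18 matrix partners, 5 were tested, 2 above and 3 below 0, with a median log2FC of -0.06. *Col3a1* had 107397, 88554 and 47829 counts in AdWT and 79200, 146800 and 86886 in AdKO, overlapping groups with a log2FC of 0.39 (SE 0.334). *Nid1*, a basement membrane gene, had -0.12 (SE 0.0919), *Fbn1*, the fibrillin 1 gene, -0.06 (SE 0.0624) and *Col14a1*, a collagen of the fibril surface, -0.14 (SE 0.179). *Col2a1* and *Col9a1*, cartilage collagen genes that encode partners of COMP, were at 0 in every library, and *Matn1* had at most 3 counts.

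Of 9 proteases known to cleave these proteins, 4 were tested, 3 above and 1 below 0, with a median log2FC of 0.13. *Adamts5*, an aggrecanase gene, had 1158 CPM in AdWT and 1185 CPM in AdKO and a log2FC of 0.03 (SE 0.231). *Adamts12*, which encodes a protease of COMP, had -0.09 (SE 0.120), and *Adamts4* had 0.23 (SE 0.370). The collagenase gene *Mmp13*, with 10 to 32 counts, had 0.69 (SE 0.394), and its groups overlapped.

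Of 15 TGF-β genes, 9 were tested, 6 above and 3 below 0, with a median log2FC of 0.03. *Postn*, which encodes the matrix protein periostin, had 7, 7 and 5 counts in AdWT and 16, 11 and 20 in AdKO, so the groups were separate, with a log2FC of 1.31 (SE 0.356, adjusted *p* = 0.847 in edgeR's test). *Postn* has 3 rows, and these counts are those of the highest. *Tgfbr3*, a TGF-β co-receptor gene, had 0.11 (SE 0.0736) with separate groups, *Ctgf* -0.25 (SE 0.198), *Tgfb3* 0.05 (SE 0.126) and *Ltbp2* 0.03 (SE 0.318).

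**Figure D4:**
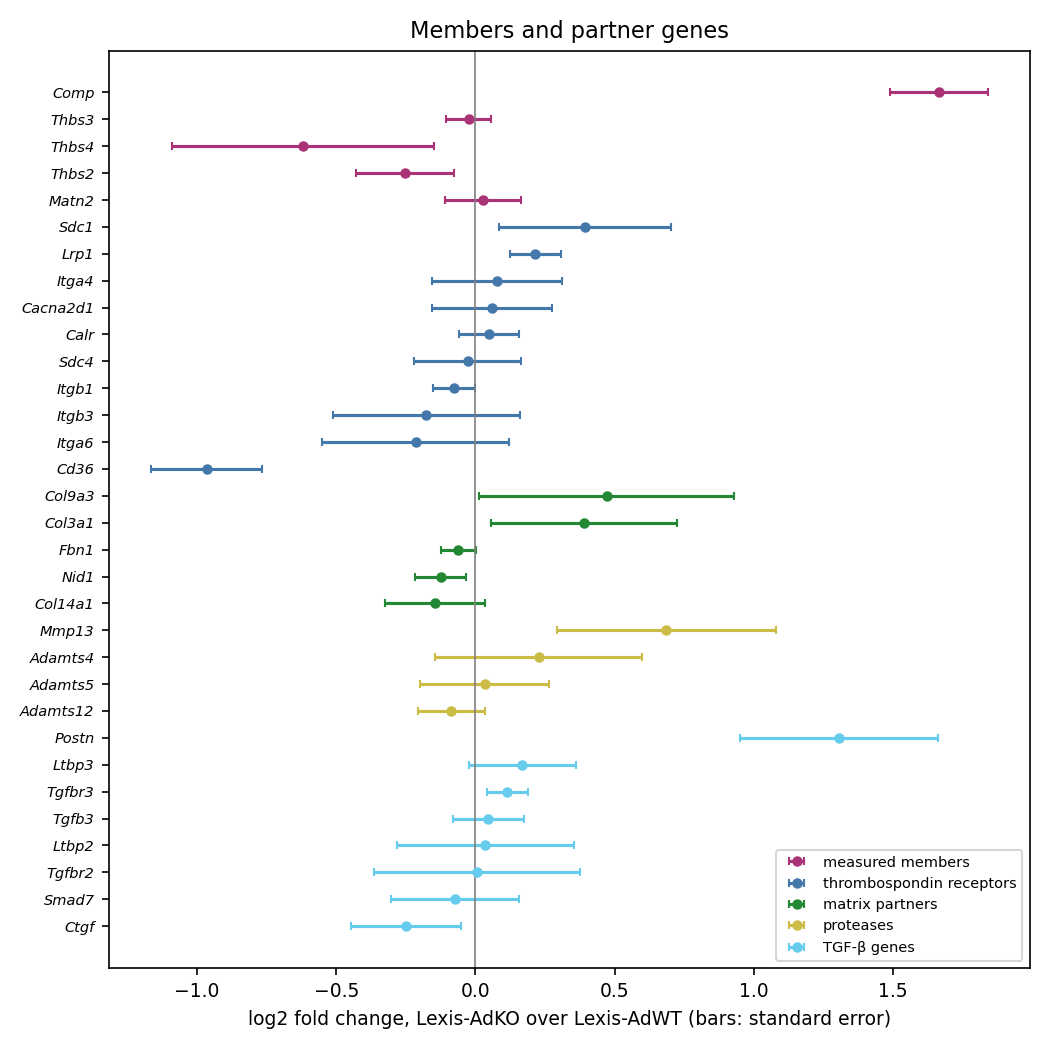
Log2 fold change of AdKO over AdWT from edgeR, with bars of 1 SE, for the 5 members tested and for partner genes tested, coloured by list. *Comp* at 1.67 is the highest point and *Cd36* at -0.97 the lowest.

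Markers of tendon and cartilage, the tissues best known for COMP, did not separate the groups as a sum. Their summed level was 37.2 to 43.0 CPM in AdWT and 30.0 to 48.0 CPM in AdKO. Of 17 markers, 16 had a row and 5 were tested, of which 4 were above 0, with a median log2FC of 0.26. The defining cartilage markers *Col2a1* and *Ucma* were at 0 in every library and *Acan* had 1 count in 1 library. *Scx*, the transcription factor gene of tendon, had 75, 85 and 96 counts in AdWT and 76, 90 and 116 in AdKO, a log2FC of 0.14 (SE 0.189). *Sox9*, a transcription factor gene of cartilage, had 0.78 (SE 0.414), *Chad*, the chondroadherin gene, 0.28 (SE 0.235) and *Prg4*, the lubricin gene, 0.26 (SE 0.277), with overlapping groups and no unadjusted *p* under 0.05. *Fmod*, a collagen-binding proteoglycan gene of tendon, was lower in AdKO in all libraries after scaling, with a log2FC of -0.41 (SE 0.165, adjusted *p* = 0.851 in edgeR's test).

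In bulk tissue, fewer cells of a type and less RNA per cell cannot be told apart, and the summed markers of 3 cell types did not overlap between the groups. Adipocyte markers were at 46199 to 54665 CPM in AdWT and 41388 to 42056 CPM in AdKO, with 1 of 5 genes tested above 0. Most of this sum was *Fabp4*, with means of 33543 CPM in AdWT and 28672 CPM in AdKO. The groups of *Adipoq*, *Plin1* and *Lipe* overlapped, and none of the 5 had an adjusted *p* under 0.05 in edgeR's test. Skeletal muscle markers were lower in AdKO (20.3 to 180.6 CPM in AdWT), with all 7 genes tested below 0, and the AdWT library with the highest muscle sum, replicate 2, had the lowest *Comp*. Without that library the value of *Comp* was 1.504. AdWT replicate 1, with 35.5 CPM of muscle markers, had 17.3 CPM of *Comp*, and AdWT replicate 3 had 20.3 and 15.4 CPM. Platelet markers were at 56.7 to 70.1 CPM in AdWT and 79.3 to 96.7 CPM in AdKO, mostly from *Pf4*, a chemokine gene of platelets that some tissue macrophages also express, with 1016, 1158 and 832 counts in AdWT and 1246, 1432 and 1295 in AdKO. Their part in the level of *Comp* was not tested.

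The sums of the other marker lists overlapped between the groups. Markers of progenitors and fibroblasts, cells that make *Comp* in other tissues, were at 353.2 to 568.1 CPM in AdWT and 561.4 to 749.7 CPM in AdKO, with 3 of 7 genes tested above 0. *Pi16* and *Dpp4*, which mark progenitors of the fascia, had log2FC values of -0.02 (SE 0.162) and 0.21 (SE 0.131), and *Lum*, a fibroblast proteoglycan gene, 0.58 (SE 0.319). Macrophage markers were at 359.2 to 754.6 CPM in AdWT and 635.6 to 788.9 CPM in AdKO. Endothelial markers were at 790.9 to 1159 CPM in AdWT and 773.6 to 1096 CPM in AdKO, and mural markers at 310.6 to 511.5 CPM and 422.3 to 472.9 CPM. Schwann cell markers were at 66.3 to 79.6 CPM in AdWT and 69.7 to 81.8 CPM in AdKO, and lymphocyte markers at 8.83 to 21.5 CPM and 8.18 to 15.0 CPM. Epithelial markers were at 42.1 CPM in AdKO replicate 3 and 19.6 CPM in AdWT replicate 3, and at 1.31 CPM or less in the other libraries, and *Comp* had 1.62 on the log2 scale when AdKO replicate 3 was left out.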

How the data were processed

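Stranded libraries were made from iWAT RNA and aligned by the authors with HISAT2 (mm9). The deposited values are counts, not normalized. The counting tool, its annotation and its use of strand are not given in the sources used here. Counts were compared with edgeR 4.0.16 in R 4.3.3 (filterByExpr, TMM, glmQLFit, glmQLFTest) with Benjamini-Hochberg adjustment over all rows tested and a threshold of 0.05, and DESeq2 1.42.0 was an alternative. The fit was tested on simulated data. Standard errors are the log2 fold change over the square root of F, and intervals (95%) use the test's degrees of freedom. Log2 CPM had 0.5 added to counts. Coordinates and exon lengths are from GENCODE vM1 on NCBIM37 (mm9). Where a symbol has several rows, the highest stands for it. Named genes are the members, partner genes with an unadjusted *p* under 0.05 and otherwise up to 4 per list by mean CPM, and the 5 closest to *Comp*. Marker genes, *Ptn* and *Lcn2* were named after their values were seen. Members, lists and tests were chosen with earlier results of these data known, and the comparisons of pentameric shares and of neighbouring genes after the values were seen. P values set the difference between the groups against the spread between these libraries, which is estimated with information from all rows tested. The libraries held 14470542 to 17882713 counts, and the common biological coefficient of variation was 0.196. For genes with few counts in every library, such as *Postn*, counting error is larger than this. Whether libraries with equal replicate numbers are pairs is not given in the sources used here, so the numbers were not used as a block in the main fit. A partner gene is counted but not reported here.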

Additional observations from a re-analysis of the deposited data

How the results depend on the processing

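The log2 fold change of *Comp* kept its direction and stayed within its replicate spread under all 15 alternatives (1.504 to 1.80), and *Thbs2* and *Thbs4* stayed below 0 with no adjusted *p* under 0.05. Their unadjusted *p* in edgeR's test was under 0.05 in a single alternative each, 0.00698 for *Thbs4* without AdWT replicate 3 and 0.0279 for *Thbs2* without AdKO replicate 1. *Thbs3* changed sign with library size only (0.020) and lay between -0.090 and 0.011 with each library left out, and *Matn2* between -0.092 and 0.12. The cause was not tested. No other alternative changed the direction of a member. DESeq2 gave 27 rows called and 1 partner gene, *Cd36*. With all rows of at least 1 count in any library, 1 row was called, that of *Comp*, and since *Comp* was chosen for this contrast the count is no test of it. With each library left out, rows called lay between 0 and 1 (*Gm8210*, without AdKO replicate 3, named after its values were seen), rows at an unadjusted *p* under 0.05 between 329 (without AdWT replicate 2) and 1208 (without AdWT replicate 1), and partner genes at that level between 2 and 5. With the longest coding transcript as length, an alternative chosen after seeing the data, *Comp* made up 25.8% of the pentameric transcripts in AdWT and 53.3% in AdKO. Same-numbered libraries had correlations of deviations of -0.07, -0.14 and 0.32, and with a replicate block 418 rows had an unadjusted *p* under 0.05, 0 were called, and *Comp* had 1.68. The last row of *Matn2*, with 2 to 6 counts, was left out by the filter on low counts.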

Other observations

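The genes within 100 kb of *Comp* on chromosome 8 were examined after the values of *Comp* were known. Of 7 with a row, 4 were tested. *Crtc1*, a coactivator gene on the minus strand, ends 290 bp beyond the end of *Comp* and points towards it. It had 772, 784 and 794 counts in AdWT and 774, 781 and 816 in AdKO, which gave 0.03 on the log2 scale (SE 0.0804). *Cope*, which encodes a coatomer subunit, had -0.02 (SE 0.0777), and *Sugp2*, a splicing factor gene, 0.26 (SE 0.228). *Ddx49*, an RNA helicase gene with 3 rows, had 0.69 (SE 0.250, adjusted *p* = 0.851 in edgeR's test) with separate groups at a mean of 1.02 CPM in AdWT and 1.65 CPM in AdKO. Near *Matn2*, 3 genes were tested and all lay below 0, *Laptm4b* with -0.30 (SE 0.160, adjusted *p* = 0.853 in edgeR's test) and separate groups, *Rpl30*, a ribosomal protein gene whose near-identical copies make its count uncertain, with -0.16 (SE 0.199) and *Hrsp12* with -0.14 (SE 0.152). *Mtx3*, near *Thbs4*, had -0.02 (SE 0.111), and *Slc50a1*, a sugar transporter gene near *Thbs3*, 0.06 (SE 0.0934).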
